A study of Mus musculus with 6 samples.

Results

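The genes described here carry glucose and lactate across the plasma membrane, run glycolysis and run the pentose phosphate pathway. They were read in brown adipose tissue, a fat that turns fuel into heat. The members are the rows of the gene count table whose symbol is on a list of 36 such genes. All 36 were found among 24062 symbols, and 35 had enough reads to be tested. The RNA came from male C57BL/6 mice aged 12 weeks: 3 labelled FAM195A knockout (knockout 1 to 3) and 3 labelled FAM195A heterozygous (heterozygous 1 to 3). By the series' title and design text, FAM195A is a stress granule protein that binds RNA and on which heat production in the cold depends. The mice compared with the knockouts carry 1 disrupted copy themselves, and no wild-type sample was analysed here. The sources used here give neither the way the allele was made nor the housing temperature.

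Glucose enters cells through facilitated transporters, is trapped by hexokinase, and is split and oxidised to pyruvate by the glycolytic enzymes. The pentose phosphate pathway branches off after the hexokinase step. Its oxidative arm makes NADPH, which fatty acid synthesis uses, and its non-oxidative arm returns sugars to glycolysis. Brown adipocytes take up much glucose when stimulated and use part of it to make fatty acids. Several steps are run by isoforms from separate genes, and Pfkm, Pgam2 and Eno3 are the forms for which skeletal muscle is the main site.

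Reads counted in genes ran from 22418031 to 25084627 in the knockout-labelled libraries and from 18781401 to 20471963 in the heterozygous-labelled ones. They made up 51% to 58.3% of each library's column total against 43.9% to 48.4%. Reads that fell in no gene took 21.5% to 26.6% against 27.5% to 29.9%. Neither share overlapped between the groups, and the part of this in the differences below was not tested. Ucp1, which defines brown adipocytes by uncoupling their mitochondria, was abundant in every library, at 4390, 5693 and 1647 CPM in knockout 1, 2 and 3, against 4898, 5290 and 2963 CPM in heterozygous 1, 2 and 3. CPM is a gene's read count relative to its library's total, with totals scaled by the trimmed mean of M values (TMM). The targeted gene did not separate the labels. Fam195a stood at 50.5, 82.0 and 81.3 CPM in knockout 1, 2 and 3, and at 69.0, 70.5 and 103 CPM in heterozygous 1, 2 and 3 (log2 fold change -0.18, 95% interval -0.745 to 0.384, edgeR quasi-likelihood test, adjusted p = 0.896). Directions below are therefore those of libraries labelled knockout relative to libraries labelled heterozygous. Markers of skeletal muscle differed between the groups. All 24 had log2 fold changes below 0 with no overlap between groups, against 9.89% of all tested genes, and their summed level was 4130 to 7433 CPM in the knockout-labelled libraries and 11930 to 34704 CPM in the heterozygous-labelled ones. None of the 24 passed the threshold over all genes. In bulk tissue, fewer cells of a type and less RNA per cell cannot be told apart. Titles begin with RF in 4 libraries and with RE in knockout 3 and heterozygous 3, a prefix whose meaning the labels do not give.

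None of the 35 tested members passed an adjusted p of 0.05, where 0.586% of all 13300 tested genes did, 0.534% as lower and 0.0526% as higher (edgeR quasi-likelihood test, Benjamini-Hochberg adjustment over all tested genes). At an unadjusted p below 0.05 there were 5 members lower and 4 higher in the knockout-labelled libraries, 9 in all, against 8.04%, 4.05% and 12.1% of all tested genes. The 5 lower ones were Pgam2, Eno3, Pfkm, Pfkfb3 and Slc16a3, and the 4 higher ones Slc2a4, Aldoc, Pgk1 and Taldo1. These counts moved with covariates. With the title prefix as a term they were 7 lower and 14 higher, against 10.5% and 7.63% of all tested genes, and Pgd and Tkt were among the higher ones (unadjusted p = 0.00297 and 0.00724, adjusted 0.0677 and 0.0988 by edgeR). With a muscle score (the mean log2 level of the 24 muscle markers) as a term they were 0 lower and 1 higher, against 1.43% and 0.526%. DESeq2 called the same 5 as lower at an adjusted p of 0.05 and none as higher, where it called 4.85% and 0.933% of all genes it adjusted, 5.78% in both directions. At an adjusted p of 0.1 by edgeR, Pgam2 and Eno3 passed as lower, with 3.31% of all tested genes. The groups did not overlap for 5 members lower and 8 higher, 13 in all, against 9.89%, 8.11% and 18% of all tested genes. Fold changes were above 0 for 20 of the 35, against 53.1% of all tested genes. The median log2 fold change was 0.28 over the 35 members, 0.30 over the 32 that are not muscle isoforms, -2.02 over the 3 muscle isoforms and 0.0196 over all tested genes.

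**Figure D1:**
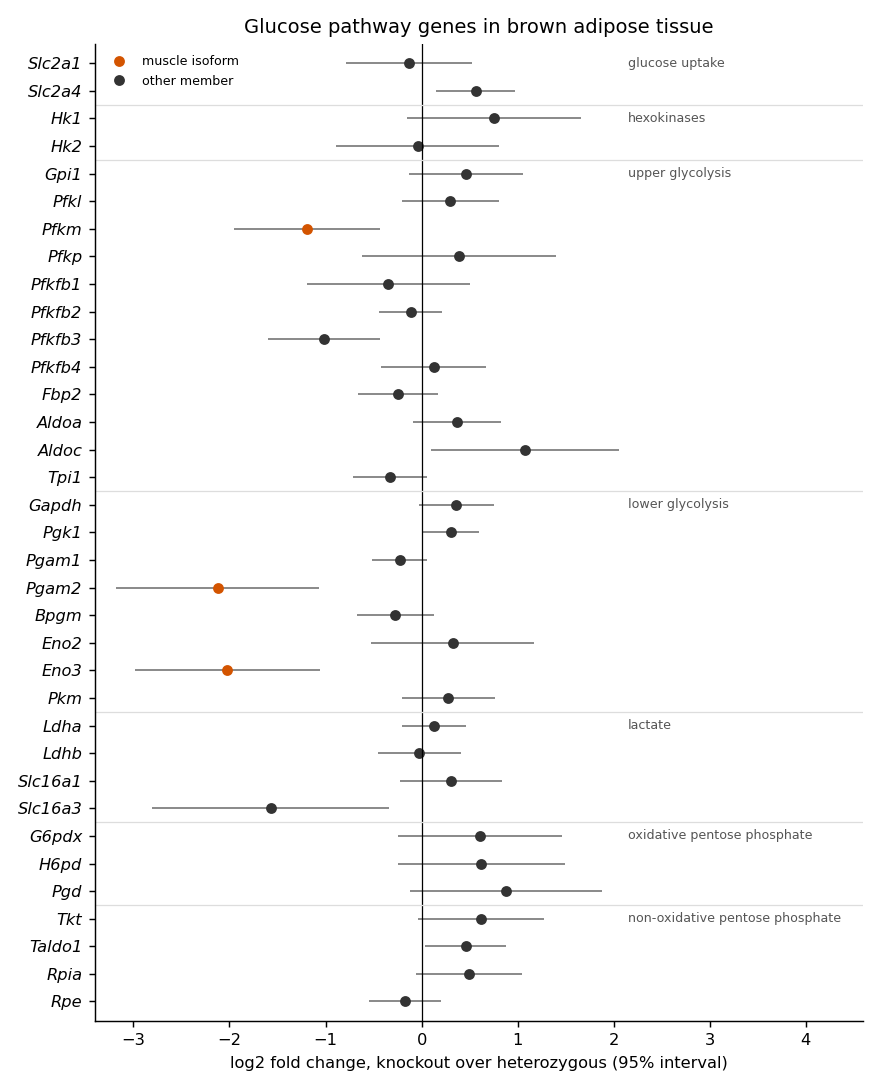
Log2 fold change of the 35 tested members, knockout-labelled over heterozygous-labelled libraries (x axis), with bars for the 95% interval of the edgeR fit and genes grouped by role (y axis). The 3 muscle isoforms, in orange, lie at -1.19, -2.12 and -2.02, and Slc16a3 and Pfkfb3 are the other members below -1.

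Levels per length place the pathway in this tissue. Per kilobase of exon and by the mean over all 6 libraries, the most abundant member was Aldoa, the main aldolase of muscle and many other tissues, at 3853 CPM per kilobase in the knockout-labelled libraries and 2989 in the heterozygous-labelled ones. Gapdh, glyceraldehyde phosphate dehydrogenase, followed at 1962 and 1528, then Tkt, the transketolase of the pentose phosphate pathway, at 2031 and 1324, and Pkm, the pyruvate kinase gene of non-hepatic tissues, at 1228 and 1012. The lowest tested member was Eno2, the neuronal enolase, at 0.365 and 0.291 CPM per kilobase. Reads of all members together made up 3.41%, 3.45% and 2.88% of gene reads in knockout 1, 2 and 3, against 2.91%, 2.84% and 2.34% in heterozygous 1, 2 and 3. The ranges overlapped.

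**Figure D2:**
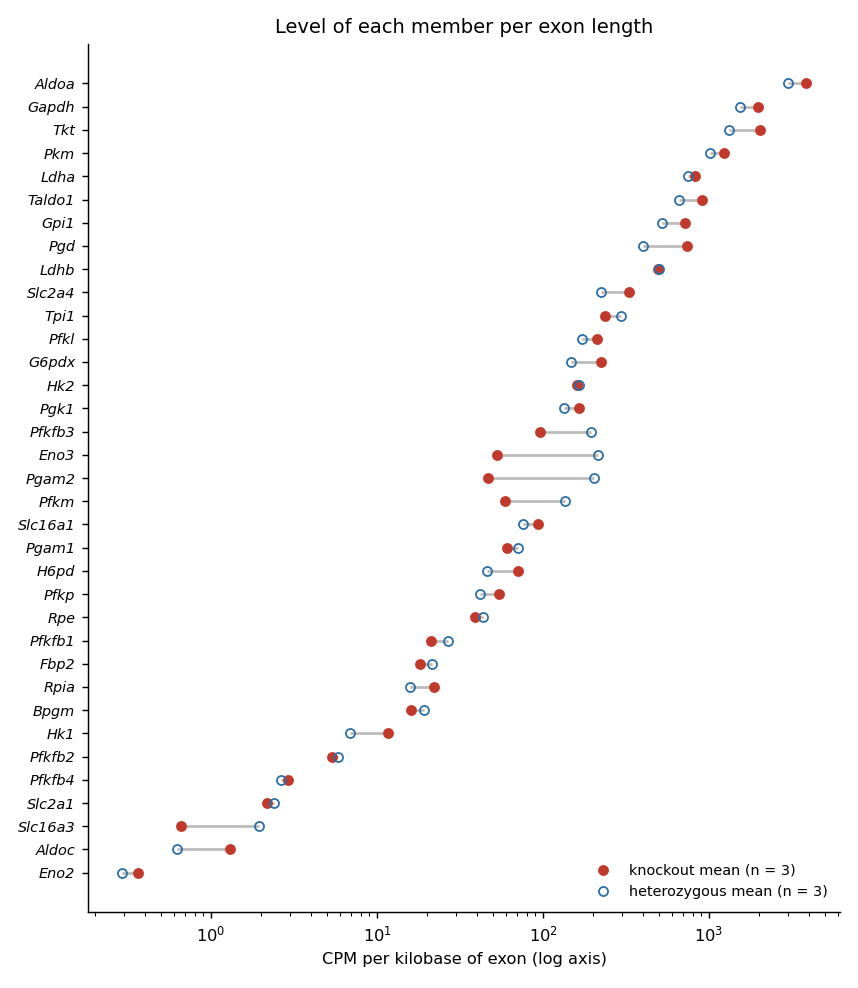
Mean level of each member except Eno1 per kilobase of exon, on a log axis (x), with genes ordered by their mean over all 6 libraries (y); filled points are knockout-labelled and open points heterozygous-labelled means of 3 libraries, with no error shown. Pgam2 and Eno3 stand among the mid-level genes in the heterozygous-labelled libraries, at 203 and 213, and lower in the knockout-labelled ones, at 46.7 and 52.5.

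Muscle isoforms made up 3 of the 4 members with the widest differences, the other being Slc16a3. Since Pgam2 and Eno3 differed most, the 250 bases before their RefSeq start sites are shown beside those of Pgam1, the widely used form of the same enzyme as Pgam2 (RefSeq sequences, GRCm38.p6, strand of the gene, 5′ to 3′). Capitals mark CAGCTG, an E-box of the kind that myogenic factors bind, and the consensus of the muscle factor MEF2, both searched on either strand without overlap in these windows.
Pgam2, chr11:5803797-5804046, minus strand: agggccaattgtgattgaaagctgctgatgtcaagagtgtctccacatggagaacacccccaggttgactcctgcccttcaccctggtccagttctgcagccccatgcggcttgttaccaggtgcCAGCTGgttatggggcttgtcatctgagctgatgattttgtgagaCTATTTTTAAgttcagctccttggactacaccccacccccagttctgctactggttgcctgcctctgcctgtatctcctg
Pgam1, chr19:41911621-41911870, plus strand: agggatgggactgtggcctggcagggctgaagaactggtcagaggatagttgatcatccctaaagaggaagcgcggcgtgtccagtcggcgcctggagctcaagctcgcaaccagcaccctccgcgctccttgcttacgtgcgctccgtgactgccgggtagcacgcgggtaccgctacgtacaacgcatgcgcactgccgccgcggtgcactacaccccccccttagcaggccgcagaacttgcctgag
Eno3, chr11:70656926-70657175, plus strand: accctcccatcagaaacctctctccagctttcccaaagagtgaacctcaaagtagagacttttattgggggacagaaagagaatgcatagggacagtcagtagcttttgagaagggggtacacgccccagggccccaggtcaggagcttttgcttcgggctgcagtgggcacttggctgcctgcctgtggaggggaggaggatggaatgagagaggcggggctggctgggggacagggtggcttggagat
Pgam2 held 1 match to each motif, and Pgam1 and Eno3 held none in these windows. CAGCTG stood in 13% and the MEF2 consensus in 2.92% of the 32851 promoter windows of the same length, and a match is a description of the letters only. Among the members, 35 genes had 53 windows, of which 8 held CAGCTG and 2 the MEF2 consensus. None of the 4 windows of Pfkm held either.

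Pgam2 encodes the muscle phosphoglycerate mutase. Its place is chromosome 11, 5801640 to 5803733, minus strand (GRCm38, GENCODE M21). It stood at 57.3, 37.6 and 22.8 CPM in knockout 1, 2 and 3, and at 87.8, 182 and 243 CPM in heterozygous 1, 2 and 3. Every knockout-labelled library was below every heterozygous-labelled one, and heterozygous 1 was the lowest of its group. Its log2 fold change was -2.12 (SE 0.45, 95% interval -3.18 to -1.07, adjusted p = 0.0804).

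Eno3, the muscle enolase, is at chromosome 11, 70657202 to 70662513, plus strand. Its level was 103, 74.1 and 69.1 CPM in knockout 1, 2 and 3, against 159, 327 and 515 CPM in heterozygous 1, 2 and 3. The groups did not overlap here either, and the log2 fold change was -2.02 (SE 0.411, 95% interval -2.99 to -1.06, adjusted p = 0.0789).

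Pfkm, the muscle phosphofructokinase, which commits fructose phosphate to glycolysis, is at chromosome 15, 98092589 to 98132451, plus strand. It stood at 186, 161 and 188 CPM in knockout 1, 2 and 3, and at 225, 412 and 585 CPM in heterozygous 1, 2 and 3. The knockout-labelled values were close together and all below the others, and the log2 fold change was -1.19 (SE 0.321, 95% interval -1.95 to -0.437, adjusted p = 0.147). Of its 2999 exon bases, 18 overlap exons of Senp1 on the other strand.

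The summed and mean levels of the muscle markers were lower in the knockout-labelled libraries, as these 3 genes were. Within that group Pfkm was highest in knockout 3, where the markers were lowest. The muscle score, taken as the average of log2(CPM + 0.5) over the 24 markers, was 7.51, 6.75 and 6.68 in knockout 1, 2 and 3, and 8.19, 9.41 and 9.77 in heterozygous 1, 2 and 3. Pgam2 and Eno3 were the only members of the 36 that put all 6 libraries in the same order as the score. Measured as log2 level minus the score of the same library, Pgam2 was at -1.77 ± 0.331 in the knockout-labelled libraries and -1.82 ± 0.0923 in the heterozygous-labelled ones, and Eno3 at -0.634 ± 0.159 and -0.896 ± 0.151 (SD, n = 3 each), with overlapping groups for both. Pfkm was at 0.497 ± 0.431 and -0.556 ± 0.179 on that scale, so that the knockout-labelled libraries lay above the others without overlap. These values were chosen after seeing the data. With the score as a term in the fit, the log2 fold changes were 0.024 for Pgam2, 0.12 for Eno3 and 0.34 for Pfkm, and that fit called none of all tested genes. The score itself did not overlap between the genotypes, so its part and that of the genotype label cannot be told apart.

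**Figure D3:**
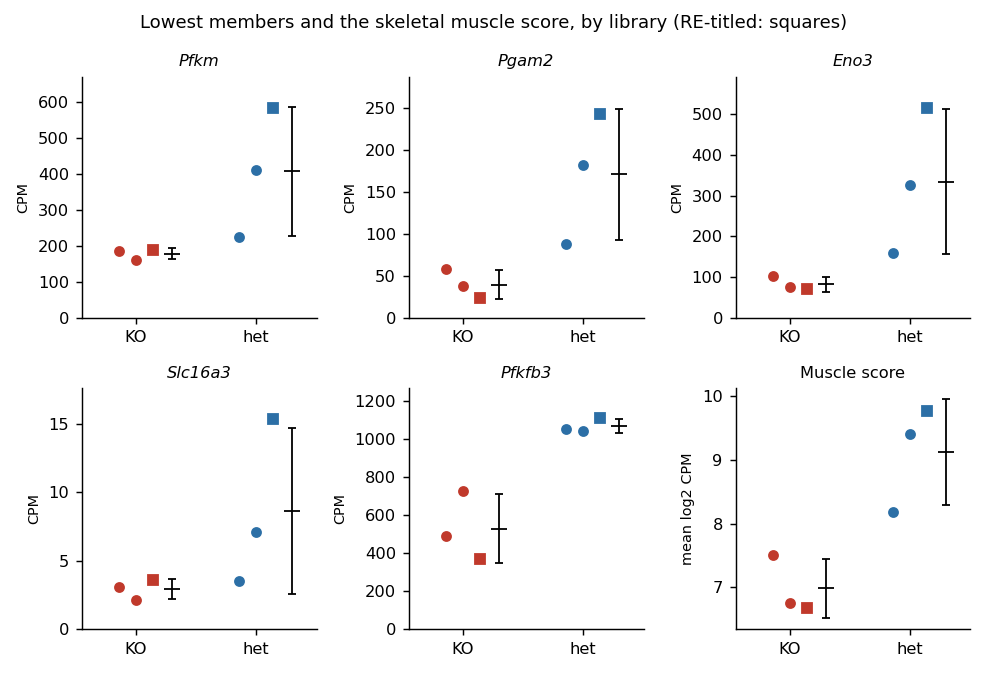
CPM by library (y axis) for the 5 members lower at an unadjusted p below 0.05, and the muscle score in mean log2 CPM; KO is knockout-labelled, het heterozygous-labelled, squares are RE-titled libraries, and bars are the mean and SD of 3 libraries. Pgam2, Eno3, Pfkm and Slc16a3 are highest in heterozygous 3, as the muscle score is, while Pfkfb3 is at 1045 to 1114 CPM in all 3 heterozygous-labelled libraries.

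Within each title prefix the direction held for these genes. With only the RF-titled libraries (2 against 2), log2 fold changes were -1.51 for Pgam2, -1.45 for Eno3 and -0.88 for Pfkm. Between the RE-titled libraries, 1 of each label and so with no test, they were -3.39, -2.89 and -1.64. Without heterozygous 1 all 3 genes passed, with adjusted p of 0.0216, 0.012 and 0.0149 by edgeR, where 2.81% of all tested genes were called lower. None passed without any other library.

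The isoform balance could be read for phosphofructokinase and phosphoglycerate mutase. Per kilobase, Pfkm made up 17.7%, 16.9% and 20.6% of phosphofructokinase reads (Pfkm, Pfkl and Pfkp) in knockout 1, 2 and 3, against 22.0%, 37.1% and 58.6% in heterozygous 1, 2 and 3. The log2 ratio of Pfkm to the sum of Pfkl and Pfkp differed by -1.46 (two-sided exact permutation p = 0.1, which is the lowest possible with 3 per group, and 0.267 after adjustment over 8 ratios). Its lowest heterozygous-labelled share lay close to the highest knockout-labelled one. Of the 4298 exon bases of Pfkp, 748 overlap exons of Pitrm1 on the other strand. The strand setting is not given, so the Pfkp count in this ratio is uncertain. Pgam2 made up 55.4%, 42.2% and 29.3% of phosphoglycerate mutase reads in knockout 1, 2 and 3, and 58.6%, 76.6% and 79.9% in heterozygous 1, 2 and 3. That log2 ratio differed by -1.87 (exact permutation p = 0.1, adjusted 0.267). Since 43.1% of the Pgam1 transcript matches Pgam1-ps2 and none of Pgam2 matches another gene, while reads with several alignments went uncounted, these shares may overstate Pgam2.

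Enolase aside, which is taken up below, the other isoform pairs overlapped between the groups. Hk2 held 92.1% ± 4.37 of hexokinase reads in the knockout-labelled libraries and 95.5% ± 2.69 in the heterozygous-labelled ones. Ldha, the lactate dehydrogenase subunit that favours lactate formation, held 62.6% ± 3.67 and 59.9% ± 3.33 of Ldha and Ldhb reads (SD, n = 3 each). This share may be too high, since 76.8% of the Ldhb transcript matches Gm5514 and none of Ldha matches another gene. The differences in log2 ratio were -0.88 for Hk2 over Hk1, 0.66 for Slc2a4 over Slc2a1, -0.79 for Aldoa over Aldoc, 0.17 for Ldha over Ldhb and -1.65 for Slc16a3 over Slc16a1 (exact permutation p = 0.5, 0.2, 0.2, 0.6 and 0.2).

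**Figure D4:**
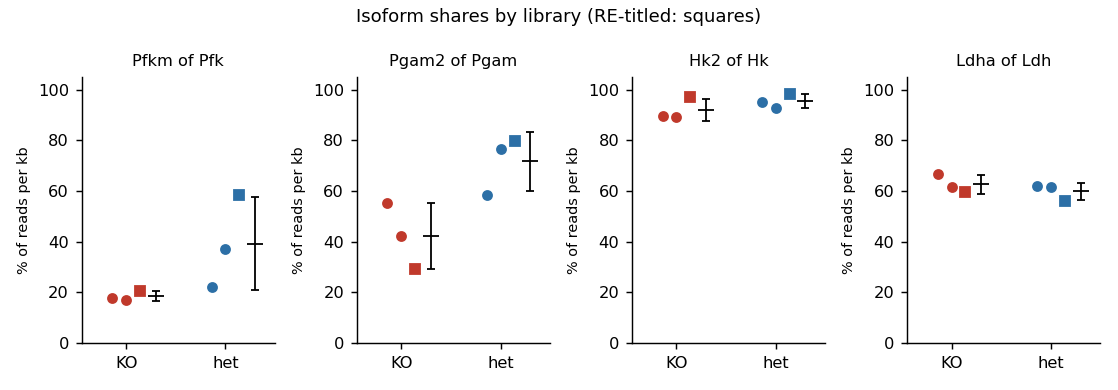
Share of an isoform in the reads per kilobase of its family, in percent (y axis), for each library (KO is knockout-labelled, het heterozygous-labelled, squares are RE-titled); bars are the mean and SD of 3 libraries. Pfkm and Pgam2 shares do not overlap between the groups but nearly meet at 20.6% against 22.0% and 55.4% against 58.6%, while Hk2 and Ldha shares overlap.

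For enolase no such balance can be read. Eno1, the enolase of most tissues, had 1, 1 and 0 reads in knockout 1, 2 and 3 and none in the heterozygous-labelled libraries. Of its 2027-base transcript, 85.6% matches other annotated genes at 98% identity or more, above all Eno1b, and reads that align to more than 1 place were counted in a line of their own. Its level here is that of uniquely placed reads only. Eno1b itself stood at 160, 164 and 108 CPM in knockout 1, 2 and 3, but at 110, 3.18 and 2.86 CPM in heterozygous 1, 2 and 3. Heterozygous 1 was with the knockout-labelled libraries, so this count did not follow the label. Given the match between the 2 genes, whether these reads came from Eno1b or from Eno1 was not tested. Eno2 was at 0.717 to 1.29 CPM in the knockout-labelled libraries and 0.605 to 0.96 CPM in the heterozygous-labelled ones.

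Of the glucose transporters among the members, Slc2a4, the insulin-responsive one of fat and muscle, had the more abundant transcript, at 331 CPM per kilobase in the knockout-labelled and 224 in the heterozygous-labelled libraries. It stood at 819, 844 and 1119 CPM in knockout 1, 2 and 3, and at 639, 562 and 683 CPM in heterozygous 1, 2 and 3. All knockout-labelled libraries were above all others, with a log2 fold change of 0.56 (SE 0.177, 95% interval 0.148 to 0.976, adjusted p = 0.221). It was 0.47 in RF-titled and 0.71 in RE-titled libraries. With the muscle score as a term it was 0.40 (unadjusted p = 0.381). Slc2a1, the widely expressed basal transporter, was at 7.14 ± 1.59 CPM in the knockout-labelled libraries and 7.81 ± 2.47 CPM in the heterozygous-labelled ones (SD, n = 3 each).

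At the hexokinase step, Hk2, the insulin-induced form of fat and muscle, varied more within groups than between them. Its level was 784, 560 and 1370 CPM in knockout 1, 2 and 3, and 888, 676 and 1225 CPM in heterozygous 1, 2 and 3. The RE-titled library was the highest of each group. Between groups it differed by a log2 fold change of -0.040, with a 95% interval of -0.888 to 0.809. Hk1, the widely expressed form, stood at 76.7, 57.9 and 35.1 CPM in knockout 1, 2 and 3, and at 38.0, 44.4 and 18.2 CPM in heterozygous 1, 2 and 3. The groups overlapped (log2 0.76, adjusted p = 0.541), and within each group the RE-titled library was the lowest. With the title prefix as a covariate Hk1 was the 1 member that passed by edgeR (log2 0.79, adjusted p = 0.0366), in a fit that called 0.504% of all tested genes higher.

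Upper glycolysis held 12 tested members, 6 with log2 fold changes above 0 and 6 below (median 0.0052). Pfkfb3, a bifunctional enzyme that makes the fructose bisphosphate activating phosphofructokinase, is at chromosome 2, 11471433 to 11554077, minus strand. It stood at 490, 729 and 368 CPM in knockout 1, 2 and 3, and at 1056, 1045 and 1114 CPM in heterozygous 1, 2 and 3. The knockout-labelled libraries averaged 529 ± 184 CPM, all below the others, which averaged 1072 ± 36.9 CPM (SD, n = 3 each). Its log2 fold change was -1.02 (SE 0.25, 95% interval -1.60 to -0.435, adjusted p = 0.105), and -0.79 in RF-titled and -1.60 in RE-titled libraries. DESeq2 gave an adjusted p of 0.00309. With the muscle score as a term its log2 fold change was -1.02 (unadjusted p = 0.12). Minus the muscle score it was at 2.01 ± 0.683 in the knockout-labelled libraries and 0.943 ± 0.805 in the heterozygous-labelled ones (SD, n = 3 each), with overlapping groups.

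The other members of that family did not follow Pfkfb3. Pfkfb1, Pfkfb2 and Pfkfb4 had log2 fold changes of -0.35, -0.11 and 0.12, and none had an unadjusted p below 0.05. Pfkfb3 was the most abundant of the 4 per kilobase, at 95.8 in the knockout-labelled libraries and 194 in the heterozygous-labelled ones, against at most 21.2 and 26.9 for Pfkfb1. Whether the difference between these genes exceeds the replicate error was not tested.

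Aldoa stood at 7333, 7265 and 6484 CPM in knockout 1, 2 and 3, and at 5969, 6069 and 4316 CPM in heterozygous 1, 2 and 3. The groups did not overlap (log2 0.37, SE 0.197, adjusted p = 0.577). Aldoc, the aldolase typical of brain, was scarce, at 2.73, 4.33 and 4.61 CPM in knockout 1, 2 and 3 and 2.51, 2.17 and 0.877 CPM in heterozygous 1, 2 and 3. Its groups did not overlap (log2 1.08, SE 0.417, adjusted p = 0.347), and it put the libraries in the exact reverse of the muscle score. Gpi1, the glucose phosphate isomerase, had a log2 fold change of 0.46, Pfkl, the liver-type phosphofructokinase, 0.30, Pfkp, the platelet type, 0.39, Fbp2, the muscle fructose bisphosphatase, -0.25, and Tpi1, the triose phosphate isomerase, -0.33. Their groups overlapped and their unadjusted p were 0.0848 or more. The Gpi1 count is uncertain, since 45.5% of its transcript matches other genes. Fbp2 stood at 19.3, 28.1 and 26.6 CPM in knockout 1, 2 and 3 against 31.3, 30.3 and 26.1 CPM in heterozygous 1, 2 and 3.

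In lower glycolysis, outside the muscle forms, the log2 fold changes were small. Gapdh stood at 3148, 2884 and 2767 CPM in knockout 1, 2 and 3, and at 2453, 2449 and 1950 CPM in heterozygous 1, 2 and 3. The groups did not overlap (log2 0.36, SE 0.168, adjusted p = 0.474). Annotation M21 holds 41 other genes that match parts of the Gapdh transcript at 98% identity or more, so its count is uncertain. Pgk1, phosphoglycerate kinase, which makes the first ATP of glycolysis, was at 272, 324 and 305 CPM in knockout 1, 2 and 3, and at 247, 240 and 244 CPM in heterozygous 1, 2 and 3. Its groups did not overlap (log2 0.30, SE 0.126, adjusted p = 0.396), and 68.8% of its transcript matches other genes, Pgk1-rs7 among them.

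Pgam1 was the non-muscle member of this stage that was lower without overlap, at 97.6, 109 and 116 CPM in knockout 1, 2 and 3, against 131, 118 and 129 CPM in heterozygous 1, 2 and 3. The log2 fold change was -0.23 (SE 0.124, adjusted p = 0.581), and 43.1% of its transcript matches Pgam1-ps2. Pkm, which makes pyruvate and ATP, had a log2 fold change of 0.28, and Bpgm, which makes bisphosphoglycerate for red cells, -0.27. Both had overlapping groups, and 65.5% of the Pkm transcript matches Gm6560.

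Lactate handling showed 1 member with a low p. Slc16a3, the lactate exporter of fast muscle and other glycolytic cells, was scarce, at 3.05, 2.11 and 3.60 CPM in knockout 1, 2 and 3, and at 3.47, 7.11 and 15.3 CPM in heterozygous 1, 2 and 3. Heterozygous 1 was below knockout 3, so the groups overlapped. Its log2 fold change was -1.57 (SE 0.525, 95% interval -2.80 to -0.335, adjusted p = 0.258), and -1.04 in RF-titled and -1.95 in RE-titled libraries. It was -0.86 without heterozygous 3, and 0.80 with the muscle score as a term. Minus the muscle score it was at -5.23 ± 0.537 in the knockout-labelled libraries and -6.16 ± 0.352 in the heterozygous-labelled ones (SD, n = 3 each), without overlap. DESeq2 gave an adjusted p of 0.0401.

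Ldha stood at 1470, 1598 and 1589 CPM in knockout 1, 2 and 3, and at 1488, 1420 and 1352 CPM in heterozygous 1, 2 and 3. The groups overlapped (log2 0.13, 95% interval -0.201 to 0.458). Ldhb, the subunit common in oxidative tissues, had a log2 fold change of -0.023, and Slc16a1, the widely expressed monocarboxylate transporter, 0.31. Neither had an unadjusted p below 0.05.

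Of the 7 pentose phosphate members, 6 were on the higher side, none passed, and the median log2 fold change was 0.60 against 0.0196 over all tested genes. In the oxidative arm, Pgd, the phosphogluconate dehydrogenase that makes NADPH, stood at 1977, 1668 and 1236 CPM in knockout 1, 2 and 3, and at 1215, 1071 and 370.0 CPM in heterozygous 1, 2 and 3. The groups were just apart, and heterozygous 3 was far below the rest. Its log2 fold change was 0.88 (SE 0.427, 95% interval -0.125 to 1.88, adjusted p = 0.504), and 0.51 without heterozygous 3. G6pdx, the glucose phosphate dehydrogenase that opens the pathway, was at 734, 524 and 532 CPM in knockout 1, 2 and 3, against 529, 455 and 192 CPM in heterozygous 1, 2 and 3. Its groups overlapped (log2 0.60, adjusted p = 0.643). H6pd, its counterpart in the endoplasmic reticulum, was at 263, 226 and 542 CPM in knockout 1, 2 and 3 and 212, 161 and 296 CPM in heterozygous 1, 2 and 3 (log2 0.62, adjusted p = 0.638), highest in the RE-titled library of each group.

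In the non-oxidative arm, Tkt was at 6777, 7142 and 5721 CPM in knockout 1, 2 and 3, and at 5137, 5033 and 2628 CPM in heterozygous 1, 2 and 3. The groups did not overlap (log2 0.62, SE 0.28, 95% interval -0.0361 to 1.27, adjusted p = 0.454), and the log2 fold change was 0.37 without heterozygous 3. Taldo1, the transaldolase that works beside it, stood at 1151, 1407 and 1129 CPM in knockout 1, 2 and 3, against 1034, 900.1 and 749.9 CPM in heterozygous 1, 2 and 3. It did not overlap either (log2 0.46, SE 0.18, adjusted p = 0.358). Rpia, the ribose phosphate isomerase, had a log2 fold change of 0.50, and Rpe, the ribulose phosphate epimerase, -0.17.

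By title prefix, the log2 fold change of Pgd was 0.67 in RF-titled and 1.74 in RE-titled libraries, that of Tkt 0.45 and 1.12, and that of Taldo1 0.40 and 0.59. The median of the 7 genes was 0.39 and 0.87. With the muscle score as a term it was 0.039, and the muscle markers' part in these values was not tested further. Fatty acid synthesis uses the pathway's NADPH. A list of 10 genes around it also held the regulators Srebf1, Mlxipl and Thrsp, and Me1 and Idh1, which make NADPH themselves. The list had a median of 0.50 with none passed, and its summed level was likewise lowest in heterozygous 3. Scd1, the stearoyl-CoA desaturase, made up 65.8% to 72.7% of the sum over the 6 libraries. The summed level was 213174, 161087 and 203823 CPM in knockout 1, 2 and 3, and 146346, 142562 and 67243 CPM in heterozygous 1, 2 and 3. Of the 10 genes, 7 were lowest in heterozygous 3, while Idh1 and Srebf1 were highest of the heterozygous-labelled libraries there. The list's part in the pentose phosphate values was not tested.

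**Figure D5:**
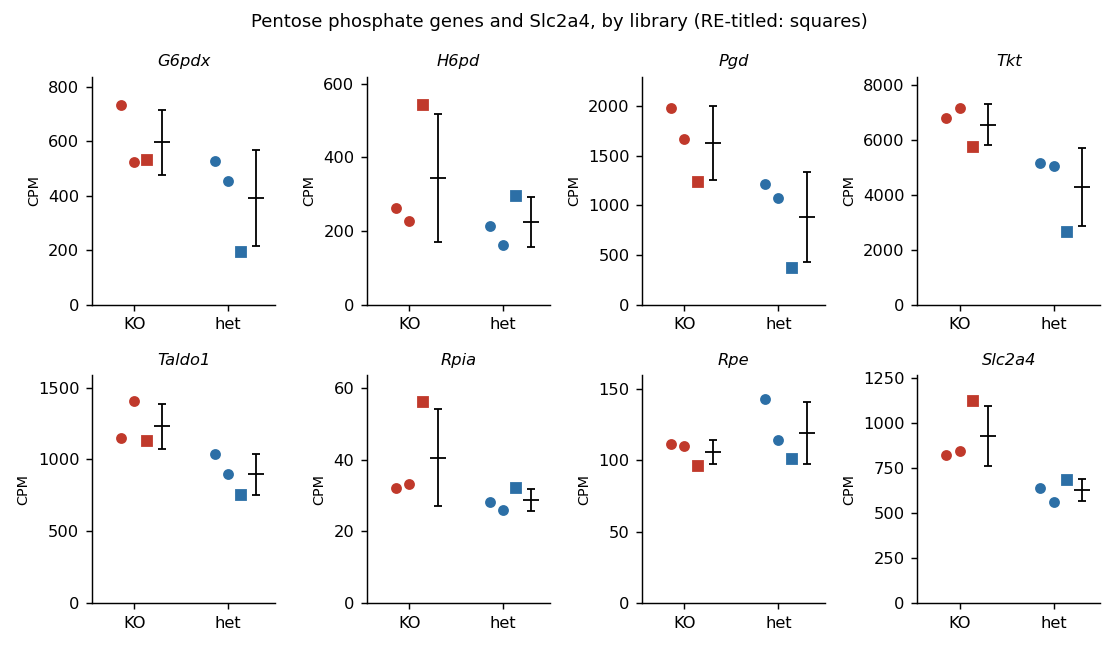
CPM by library (y axis, from 0) of the 7 pentose phosphate genes and Slc2a4; KO is knockout-labelled, het heterozygous-labelled, squares are RE-titled libraries, and bars are the mean and SD of 3 libraries. Pgd, Tkt, Taldo1 and Slc2a4 do not overlap between the groups, and heterozygous 3 is lowest for G6pdx, Pgd, Tkt and Taldo1.

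Other genes of sugar metabolism gave no call. Of 35 listed, 26 were tested, none passed, 3 were lower and 1 higher at an unadjusted p below 0.05, against 8.04% and 4.05% of all tested genes, and the median log2 fold change was 0.075. The smallest p belonged to Ldhd, the mitochondrial D-lactate dehydrogenase (49.99 ± 20.3 CPM in the knockout-labelled libraries and 118 ± 12.5 CPM in the heterozygous-labelled ones, adjusted p = 0.0841), and Got1, the cytosolic aspartate aminotransferase (27.8 ± 2.68 and 57.8 ± 21.3 CPM, adjusted p = 0.133). Slc2a5, the fructose transporter, followed at 177 ± 21.1 and 72.2 ± 37.8 CPM (adjusted p = 0.239), and Slc2a12, another facilitated transporter, at 3.85 ± 0.656 and 6.40 ± 1.86 CPM (adjusted p = 0.324; SD, n = 3 each, edgeR).

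Neighbouring programmes were set beside the members. Of 13 tested genes of the hypoxia response outside glycolysis, a programme that raises several glycolytic genes, none passed. None had an unadjusted p below 0.05, against 12.1% of all tested genes, and the median log2 fold change was -0.19. NRF2 is a factor that raises pentose phosphate genes under oxidative stress. Its list held 10 tested genes: Nfe2l2, which encodes NRF2, its inhibitor Keap1 and 8 targets. None passed, 4 targets were higher at an unadjusted p below 0.05, against 4.05% of all tested genes, and the median of the list was 0.33. Srxn1, a sulfiredoxin, had the smallest p, at 154 ± 49.4 CPM in the knockout-labelled libraries and 66.9 ± 12.2 CPM in the heterozygous-labelled ones (SD, n = 3 each, log2 1.21, adjusted p = 0.0804 by edgeR). Markers of other cell types held no call except in brown adipocytes. There Elovl3 alone of 13 passed, as higher (log2 1.03, adjusted p = 0.0418 by edgeR), against 0.0526% of all tested genes. Of those 13, 6 had log2 fold changes above 0, and the median was -0.023. The medians were 0.089 for 10 endothelial, 0.22 for 10 macrophage, -0.18 for 7 Schwann cell and -0.086 for 8 smooth muscle and pericyte genes. Among the last, Des, which skeletal muscle also expresses, was at -1.68. Of 7 red blood cell transcripts 2 were tested, and the 4 globin genes had no counted read in any library. Reads with several alignments went uncounted, and near copies of the globin genes were not searched for. These zeros therefore do not show that globin RNA was absent.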

How the data were processed

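Brown fat was snap-frozen and pulverised before RNA extraction, per the labels' protocols. The deposited table holds whole-number read counts by gene symbol for the 6 libraries and ends in HTSeq's summary lines. Tools listed in the submitters' processing notes, without roles, are edgeR, HTSeq, SAMtools 1.9, STAR 2.7.2b, Bowtie2 2.3.4.3 and Trim Galore, and the build is mm10. Annotation and strand setting: not given in the sources used here. Groups follow the genotype label, and replicates were numbered in accession order, which pairs nothing; separate mice are the replicates.

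Summary lines, 5 in number, entered neither library sizes nor tests. Reads with several alignments took 17.6% to 19.8% of the column total in the knockout-labelled libraries and 21.8% to 23.8% in the heterozygous-labelled ones. Genes were tested with edgeR 4.0.16 (R 4.3.3): TMM scaling, filterByExpr (minimum count 10, minimum total 15), which left 13300 of 24062 symbols, a robust quasi-likelihood F test on genotype, and Benjamini-Hochberg adjustment over all tested genes at 0.05. SE is the absolute log2 fold change divided by the square root of F, and 95% intervals use the fit's degrees of freedom. After the main fit, the test was also tried on counts simulated from the mean levels of these data, and that result is not given here. Positions and merged exon lengths are from GENCODE M21 (GRCm38, the assembly mm10 names), basic set; near copies were found with BLAST at 98% identity over 100 bases among its transcripts. All 36 members matched directly; 2 list genes matched through an older symbol. Alternatives were RLE or no scaling, muscle genes left out of scaling, 2 other filters on low counts and no robust estimation. Other tests were DESeq2 1.42.0 and limma-voom (limma 3.58.1), the latter with a quality weight for each library. Further ones were title prefix or muscle score as covariate, the RF-titled libraries, the RE-titled pair, each library left out and adjusted p of 0.1.

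Described in full were the muscle isoforms, members with an adjusted or unadjusted p below 0.05 or without overlap, and the most abundant member of each role; Ucp1 and up to 4 genes with the smallest p from other lists could be named. Fam195a, Eno1b, Hk1, Fbp2, Elovl3 and Des were named after their values were seen, or as checks. The members and lists were chosen with earlier results of these data known.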

Additional observations from a re-analysis of the deposited data

How the results depend on the processing

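No member passed in the main test, RLE scaling, library size only, muscle markers left out, either filter, limma-voom, no robust estimation, the muscle score or the RF-titled libraries alone. The count of lower members was 5 by DESeq2, 2 (Pgam2 and Eno3) at an adjusted p of 0.1, where 3.31% of all tested genes were called lower, and 0 to 3 over the libraries left out in turn, with 3 without heterozygous 1. The count of higher members was 1 once title prefix was a covariate and 0 to 0 over the libraries left out.

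The median log2 fold change of all members, 0.28, was 0.24 with library size only, 0.20 at a mean CPM of at least 1, 0.22 by limma-voom, 0.024 with the muscle score, 0.18 in the RF-titled libraries, 0.23 in the RE-titled pair and 0.12 (without knockout 3) to 0.26 over the libraries left out; it was 0.14 without heterozygous 3 and 0.15 without heterozygous 2. That of members other than muscle isoforms was 0.24 by limma-voom, 0.00341 with the muscle score, 0.25 in the RF-titled libraries and 0.15 to 0.35 over the libraries left out. The pentose phosphate median was 0.039 with the muscle score, 0.39 in the RF-titled libraries, 0.87 in the RE-titled pair and 0.37 (without heterozygous 3) to 0.62. The muscle isoform median was 0.12 with the muscle score, a change of sign, -2.89 in the RE-titled pair and -2.35 to -1.56 over the libraries left out.

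With the muscle score the sign also turned for Hk2 (0.0072), Pfkm (0.34), Aldoc (-0.46), Pgam2 (0.024), Eno3 (0.12), Ldha (-0.073), Slc16a3 (0.80) and Taldo1 (-0.026). Hk2 turned to 0.06 without knockout 1, 0.21 without knockout 2, 0.21 without heterozygous 3 and 0.16 in the RE-titled pair. Minus the muscle score, an alternative chosen after seeing the data, differences were 1.05 for Pfkm, 0.056 for Pgam2, 0.26 for Eno3, 1.07 for Pfkfb3 and 0.92 for Slc16a3. The cause of these changes was not tested.

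Isoform balance is given here as the knockout-labelled minus the heterozygous-labelled log2 ratio. In the RE-titled pair this difference was -2.45 for Pfkm, -3.26 for Pgam2, 1.60 for Slc2a4 and -1.81 for Aldoa. The enolase difference, -2.25 in all and -3.46 in that pair, is not interpretable because Eno1 has almost no unique reads. Over the libraries left out, the difference ran from -2.02 to -0.86 for Pfkm, -2.32 to -1.47 for Pgam2 and -2.84 to -1.93 for Eno3. It was -1.54 to -0.27 for Hk2, 0.36 to 0.91 for Slc2a4 and -1.06 to -0.48 for Aldoa. For Ldha it was 0.04 to 0.26, and for Slc16a3 -2.14 to -0.97. Scarce members (Eno2, Aldoc, Slc16a3) rest on few reads. No paired analysis was possible because the labels give the groups no shared replicate numbers.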
